A study of Nothobranchius furzeri with 3 samples.

Results

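The miRNAs described here are mir-455, mir-140 and mir-29, which are linked to cartilage and collagen in vertebrates. They were taken by name from a count table of small RNA in the skin of the turquoise killifish, Nothobranchius furzeri, where they are listed as nfu-mir-455, nfu-mir-140 and nfu-mir-29, and are 3 of its 324 features. The table holds 3 libraries of 1 group, from skin of 39-week-old male fish of strain MZM-04/10p. The labels give no treatment, no second age, no other tissue and no control, and they do not state that each library came from a separate fish. Spread between the libraries may therefore be partly technical, and no comparison between conditions was made. The libraries are called 1, 2 and 3 in accession order and held 5021238, 8545292 and 9590428 counts.

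A miRNA is a short RNA that pairs with messenger RNAs through its seed near the 5′ end and lowers their translation and stability. In vertebrates the gene of miR-455 lies in an intron of COL27A1, which encodes a fibrillar collagen of cartilage, and the gene of miR-140 lies in an intron of WWP2, a ubiquitin ligase gene active in cartilage. In the mouse, SOX9, the main transcription factor of cartilage cells, drives miR-140, and its loss shortens the long bones, while in zebrafish miR-140 acts on the PDGF receptor during formation of the palate. The miR-29 family is known for repressing messenger RNAs of type I and type III collagen and of elastin in mammalian fibroblasts, and it was linked to ageing in several tissues, among them the killifish brain. The RefSeq gene table for the killifish (assembly NfurGRZ-RIMD1) lists 2 copies of the first host gene, col27a1a and col27a1b, and 1 of wwp2, but 0 entries of the miRNA class, so the position of the miRNA genes was not checked and no miRNA sequence is shown. Each of these names occurs once in the count table, without a 5p or 3p arm, so arms cannot be told apart. Whether a value pools all family members, such as the several miR-29 genes of vertebrates, is not stated.

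mir-455 was the abundant member. It had 85558, 259106 and 163350 counts in libraries 1, 2 and 3, equal to 1.70%, 3.03% and 1.70% of all counts. The 95% exact binomial intervals were 1.69 to 1.72, 3.02 to 3.04 and 1.70 to 1.71%. Library 2 stood above the others, which could not be told apart by these shares. The mean share was 2.15% ± 0.767 (SD, n = 3), and mir-455 ranked 10, 9 and 13 among all features of libraries 1, 2 and 3. By mean it was placed 10, below mir-22 (4.02% ± 0.982), which exceeded it in 3 of 3 libraries, and above mir-337 (1.73% ± 0.848). mir-455 exceeded mir-337 in 2 of 3 libraries, with a mean difference of 0.413 percentage points ± 1.41, so that order did not hold against the spread.

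mir-29 was scarcer. It had 3375, 11621 and 11325 counts in libraries 1, 2 and 3, equal to 0.0672%, 0.136% and 0.118% of counts, with intervals of 0.0650 to 0.0695, 0.134 to 0.138 and 0.116 to 0.120%. Here library 1 stood below the other libraries. The mean share was 0.107% ± 0.0357 and the ranks were 45, 42 and 38. Its neighbour above by mean share, mir-15, exceeded it in 3 of 3 libraries, with a difference (mir-29 minus mir-15) of -0.0316 percentage points ± 0.00505. mir-29 exceeded its neighbour below, mir-17, in 1 of 3 libraries, with a mean difference of 0.00476 ± 0.0174, within the spread.

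mir-140, the cartilage miRNA, was the least abundant of the members. It had 3127, 4936 and 4934 counts in libraries 1, 2 and 3, equal to 0.0623%, 0.0578% and 0.0514% of counts, with intervals of 0.0601 to 0.0645, 0.0562 to 0.0594 and 0.05002 to 0.0529%. These shares lay closer together than those of the other members: the SD was 9.52% of the mean for mir-140, against 35.7% for mir-455 and 33.3% for mir-29. The mean share was 0.0572% ± 0.00544 and the ranks were 46, 52 and 48. The shares of its neighbours mir-1388 (0.0751% ± 0.0308) and mir-223 (0.0568% ± 0.0345) were not separated from it, since mir-140 exceeded the former in 1 of 3 libraries and the latter in 2 of 3. Counting error alone, as a coefficient of variation, was at most 1.79% for mir-140 (library 1), so depth was not what limited these values.

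**Figure D1:**
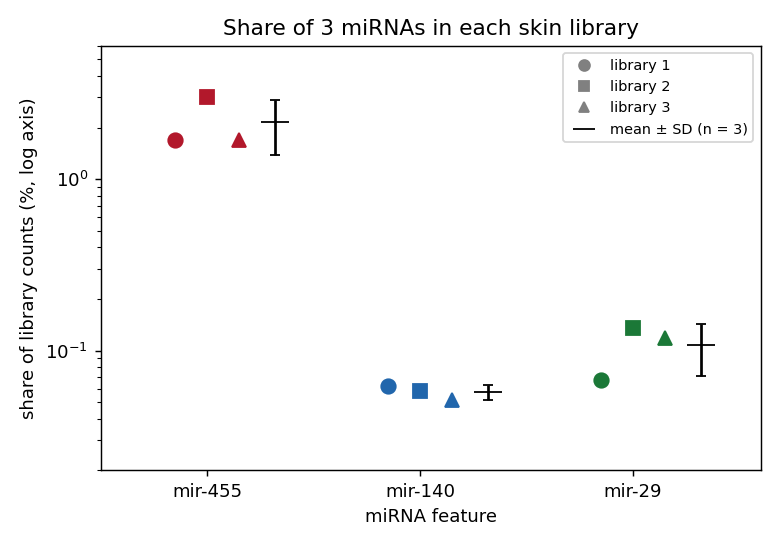
Share of all counts (percent, log axis) of mir-455, mir-140 and mir-29 in libraries 1 (circle), 2 (square) and 3 (triangle), with the mean ± SD (n = 3) beside each. mir-455 lies above 1% in every library, mir-29 is lowest in library 1, and mir-140 stays between 0.0514% and 0.0623%.

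Together the members took 1.83%, 3.23% and 1.87% of counts in libraries 1, 2 and 3, a mean of 2.31% ± 0.793. mir-455 made up 92.6% ± 1.55 of this sum, mir-29 4.73% ± 1.39 and mir-140 2.64% ± 0.808. The joint share is thus nearly that of mir-455 alone. In bulk tissue, fewer cells of a type and less miRNA per cell cannot be told apart.

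Ratios within a library do not depend on the library total. They do carry the bias of ligation-based libraries between sequences, and they are ratios of reads, not divided by the length of the mature RNA. mir-455 had 27.4, 52.5 and 33.1 times the counts of mir-140 in libraries 1, 2 and 3 (95% counting intervals 26.4 to 28.4, 51.0 to 54.0 and 32.2 to 34.1). The intervals do not overlap, and library 2 had the highest ratio. mir-455 had 25.4, 22.3 and 14.4 times the counts of mir-29 (24.5 to 26.2, 21.9 to 22.7 and 14.2 to 14.7). This ratio was lowest in library 3. mir-29 had 1.08, 2.35 and 2.30 times the counts of mir-140 (1.03 to 1.13, 2.28 to 2.43 and 2.22 to 2.37), so that they were nearly level in library 1 only.

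**Figure D2:**
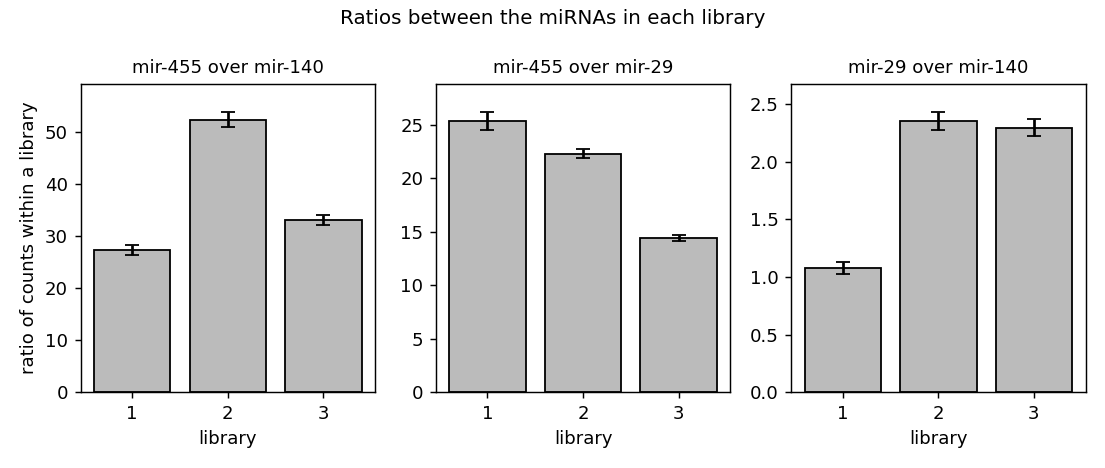
Ratio of counts of each pair of the members within libraries 1, 2 and 3, with 95% counting intervals as error bars and each axis starting at 0. The mir-455 to mir-140 ratio peaks in library 2 at 52.5, the mir-455 to mir-29 ratio is lowest in library 3 at 14.4, and the mir-29 to mir-140 ratio is near 1 in library 1 only.

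On the log2 scale the mean ratio was 5.18 ± 0.483 for mir-455 over mir-140, 4.33 ± 0.426 for mir-455 over mir-29 and 0.85 ± 0.639 for mir-29 over mir-140. The order mir-455, mir-29, mir-140 was seen in 3 of 3 libraries. Flipping the signs of the log2 ratios in all ways (exact permutation test, two-sided) gave p = 0.25 for each ratio, the smallest value that n = 3 allows, so none can pass 0.05. The last ratio exceeded its SD only narrowly, and mir-29 and mir-140 are the members least well separated.

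Of all 6555 pairs among the 115 features whose counts averaged 100 or more, 97% had a ratio that differed between libraries beyond counting error (chi-square test with Benjamini-Hochberg adjustment over all pairs). All 3 pairs of members did so, which is near that background. The adjusted p was 2.82e-205 for mir-455 with mir-140, 1.15e-299 for mir-455 with mir-29 and 2.67e-173 for mir-29 with mir-140. Without library 1 the ratio of mir-29 to mir-140 no longer differed beyond counting error (adjusted p = 0.31, chi-square test between libraries 2 and 3). In that setting 6133 of 6903 pairs (88.8%) differed. These tests compare libraries, not conditions. In size, the highest ratio exceeded the lowest 1.92-fold, 1.76-fold and 2.18-fold for these pairs in that order, against a median of 2.602-fold over all pairs, with quartiles of 1.79 and 4.36. Over all pairs, 29.96%, 23.9% and 39.1% had a steadier ratio than these.

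**Figure D3:**
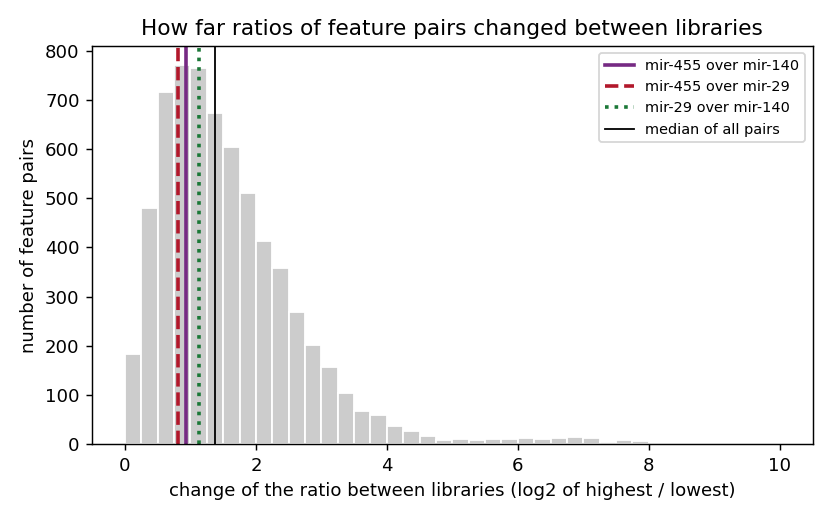
Histogram of how far the ratio of a pair of features changed between libraries (log2 of highest over lowest ratio) for all 6555 pairs among 115 features, with vertical lines for the pairs of members and for the median of all pairs. The lines of the members, at 1.76-fold, 1.92-fold and 2.18-fold, all lie below the median of 2.602-fold.

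Change over the libraries was then read from counts per 1000000 (CPM) scaled with the trimmed mean of M-values (TMM), which removes a common shift between libraries. mir-455 had 19144, 28264 and 16263 scaled CPM in libraries 1, 2 and 3, a 1.74-fold range (95% counting interval 1.73 to 1.75). It was highest in library 2 and lowest in library 3. mir-29 had 755, 1268 and 1128 scaled CPM, a 1.68-fold range (1.62 to 1.74), and was also highest in library 2 but lowest in library 1. mir-140 had 699.7, 538 and 491 scaled CPM, a 1.42-fold range (1.36 to 1.49), and was highest in library 1. The orders of libraries differed between the members, and those of mir-455, mir-140 and mir-29 were shared by 14.8%, 13.0% and 19.1% of the 115 features, so that 3 different orders do not set them apart. These orders were the same with DESeq2 size factors, with TMM over all features that had counts and with library totals, although the step of mir-455 from library 1 to library 3 shrank from 0.85-fold with TMM to 0.9996-fold with totals. With totals, the orders of mir-455, mir-140 and mir-29 were shared by 16.5%, 6.09% and 25.2% of the 115 features, so that of mir-140 was then less common. Against TMM, totals shifted the log2 fold of every feature by 0.27 for library 2 over library 1 and by 0.23 for library 3 over library 1.

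The counts of all 3 members differed between libraries beyond counting error, as did those of 81.6% of the 158 features averaging 10 or more counts (chi-square test, Benjamini-Hochberg adjustment over the 158). The adjusted p was 7.75e-17 for mir-140 and 3.96e-292 for mir-29, while that for mir-455 was too small to be held as a number. Passing this test does not set them apart, given that background. Among features averaging 100 or more counts, as all 3 members did, 112 of 115 differed, with adjustment over those 115. Without library 2, mir-455 no longer differed by library totals (adjusted p = 0.937, chi-square test between libraries 1 and 3). mir-140 and mir-29 still did. In that setting 108 of 156 features differed. The result for mir-455 rests on the totals, with which it was 0.9996-fold in library 3 against library 1. With TMM scaling mir-455 was 0.85-fold there, with a counting interval of 0.843 to 0.857 that lies below 1.

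Between single libraries, mir-29 was 1.68-fold higher in library 2 than in library 1 (95% counting interval 1.62 to 1.74), above the 1.5-fold mark that 24.3% of the 115 features passed. mir-455 was 1.48-fold higher (1.46 to 1.49), just under that mark, and passed it with each of the other scalings. So did 28.7% of the 115 features with TMM over all features that had counts, 26.96% with DESeq2 size factors and 33.0% with library totals. With the main TMM scaling, mir-140 was 0.77-fold (0.736 to 0.805) in library 2 against library 1. In library 2 against library 3, mir-455 was 1.74-fold higher and alone passed 1.5-fold among the members, against 25.2% of features. mir-140 was 1.096-fold (1.05 to 1.14) and mir-29 1.12-fold (1.095 to 1.15) there. In library 3 against library 1, none of the members passed 1.5-fold upwards, against 19.1% of features, or fell below the inverse of it, against 19.1%: mir-29 was 1.49-fold, mir-455 0.85-fold and mir-140 0.70-fold. mir-29 passed the mark there with library totals (29.6% of features passed) and with TMM over all features that had counts (20.9%). With library totals, 33.0% of features were above 1.5-fold and 16.5% below its inverse in library 2 against library 1, and 29.6% and 11.3% in library 3 against library 1. With 1 library on each side, none of these folds has a replicate check. In unscaled shares mir-29 was 2.02-fold higher in library 2 than in library 1 and 1.76-fold higher in library 3, and mir-455 was 1.78-fold higher in library 2 than in library 1.

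None of the members reached a 2-fold range over the libraries after TMM scaling, whereas 40% of the 115 features did, and the median range was 1.86-fold. With library totals mir-29 reached 2.02-fold, against a median of 1.91-fold, and 45.2% of the 115 features exceeded 2-fold. After TMM scaling, 31 of the 115 features were steadier than mir-140, 45 steadier than mir-29 and 49 steadier than mir-455. Among the 10 features nearest to each in mean count, the median range was 1.46-fold for mir-140, 1.77-fold for mir-29 and 1.65-fold for mir-455, close to the values of the members themselves. The biological coefficient of variation from edgeR, which draws each feature towards the others, was 0.380 for mir-455, 0.418 for mir-140 and 0.420 for mir-29, against a median of 0.428 over 158 features. Lower values were found for 17, 62 and 67 features, respectively. mir-455 thus had the lowest coefficient of the members but the widest range, so its place here does not mark it as steady. Among features picked as examples, the abundant mir-181 (11.3% of counts) had 0.377 at a 1.89-fold range. The scarcer mir-103 (0.0349%) had 0.414 at a 1.12-fold range.

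**Figure D4:**
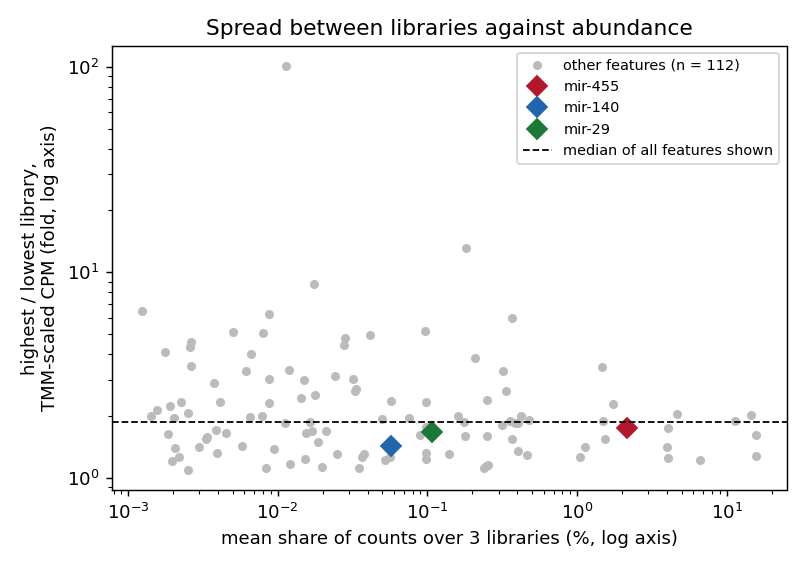
Highest over lowest library of TMM-scaled CPM (fold, log axis) against the mean share of counts (percent, log axis) for the 115 features averaging 100 or more counts. The members, as coloured diamonds, lie below the dashed median of 1.86-fold, at 1.42-fold (mir-140), 1.68-fold (mir-29) and 1.74-fold (mir-455).

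Features with the most similar course over the libraries were found by the Euclidean distance between centred log2 scaled CPM, which rests on only 3 libraries. The distance does not allow for counting error, which weighs most on scarce features. Nearest to mir-455 were the feature named mir-158 (distance 0.0514) and the features pred_580 (0.0721) and pred_717 (0.112), which carry only a prediction number. The scaled CPM of pred_580 was 914, 1280 and 726 in libraries 1, 2 and 3, while mir-158 was scarce, at 33.8, 51.5 and 30.2. Nearest to mir-140 were mir-24 (0.0827) and mir-27 (0.133), which are known from a joint gene cluster, and mir-458 (0.169). mir-24 had 1164, 927 and 886 scaled CPM and, like mir-140, was highest in library 1. Nearest to mir-29 were mir-9, a miRNA of neural cells, at 0.197, mir-605 at 0.212 and mir-821 at 0.221. mir-9 had 46.1, 65.8 and 57.9 scaled CPM. The median distance to all other features was 0.854 for mir-455, 0.798 for mir-140 and 0.828 for mir-29. None of the members was among the nearest 3 of another. The distance was 0.603 between mir-455 and mir-29 and 0.683 between mir-455 and mir-140, below those medians, and 0.904 between mir-29 and mir-140, above them. By likeness to mir-455, mir-29 was placed 36 and mir-140 was placed 43 of the other features.

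Among miRNAs known from cartilage and bone, 16 numbers were listed, for which the table held 16 features, with none for miR-675. Of these, 15 averaged 10 or more counts, and all 15 also averaged 100 or more. At that depth 112 of 115 features differed between libraries, with adjustment over those 115. Of the 15, 14 differed between libraries beyond counting error, against 81.6% of all features tested. The exception was mir-34, a target of p53, at 0.00219%, 0.00161% and 0.00173% of counts (adjusted p = 0.0554, chi-square test against library totals). After TMM scaling mir-34 had 24.6, 15.1 and 16.5 CPM in libraries 1, 2 and 3, a 1.64-fold range, so it is an exception by totals, not by range. The median range was 1.60-fold, against 1.86-fold over all 115 features, and 8 of 15 were highest in library 1, 4 in library 2 and 3 in library 3, against 38, 39 and 38 of the 115. With library totals these counts were 3, 7 and 5 of 15, against 24, 48 and 43 of the 115, so the lead of library 1 in the list rests on the scaling. The widest ranges belonged to mir-145, which represses SOX9 (3.84-fold), mir-133, a muscle miRNA that also acts on RUNX2 (3.45-fold), and mir-365, which responds to mechanical load in cartilage cells (2.43-fold). mir-365 had 0.00803%, 0.0235% and 0.0116% of counts in libraries 1, 2 and 3 and was, like mir-455, highest in library 2. mir-145 had 0.351%, 0.110% and 0.161% and, like mir-140, was highest in library 1. mir-199, which is known from mesenchyme and from cartilage formation, had 0.967%, 2.21% and 1.29%, and mir-214, its cluster partner, had 0.0518%, 0.0661% and 0.0509%, both with library 2 highest. mir-204, which represses the bone factor RUNX2, had 16.2%, 19.1% and 11.8%. Of the remaining ones averaging 100 or more counts, mir-138, mir-148, mir-218, mir-26, mir-27 and mir-30 had ranges between 1.13-fold (mir-218) and 1.60-fold (mir-148).

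The list for collagen and fibrosis, in which mir-29 stands and which overlaps the former list, held 16 features for 15 numbers. Of these, 14 averaged 10 or more counts and also 100 or more, a depth at which 112 of 115 features differed. Among the 14, 13 differed between libraries, with mir-34 again the exception by library totals, against 81.6% of all features tested. The median range was 1.71-fold, against 1.86-fold over all 115 features. The highest scaled level was that of libraries 1, 2 and 3 for 5, 4 and 5 features, respectively, against 38, 39 and 38 of all. With library totals these were 3, 4 and 7, against 24, 48 and 43. mir-21, which promotes fibrosis in several organs, had 4.08%, 2.98% and 5.10% of counts in libraries 1, 2 and 3. It was lowest in library 2, where mir-29 and mir-455 were highest. Its order of libraries after scaling (3, 1, 2) was shared by 23.5% of the 115 features, and another 20% also had library 2 lowest. mir-192, which rises with TGF-β in kidney cells, varied most, 5.97-fold, with 0.469%, 0.0946% and 0.537%. let-7 had 3.13%, 7.36% and 3.53%, with library 2 highest and a 2.04-fold range. mir-143, a smooth muscle miRNA, ranged 2.01-fold, while mir-8, the fly name of the miR-200 family, ranged 1.35-fold and mir-155, an immune miRNA, 1.38-fold. mir-200 as a name of its own was at 0 counts throughout, which allows up to 3 counts, or 0.597, 0.351 and 0.313 CPM.

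**Figure D5:**
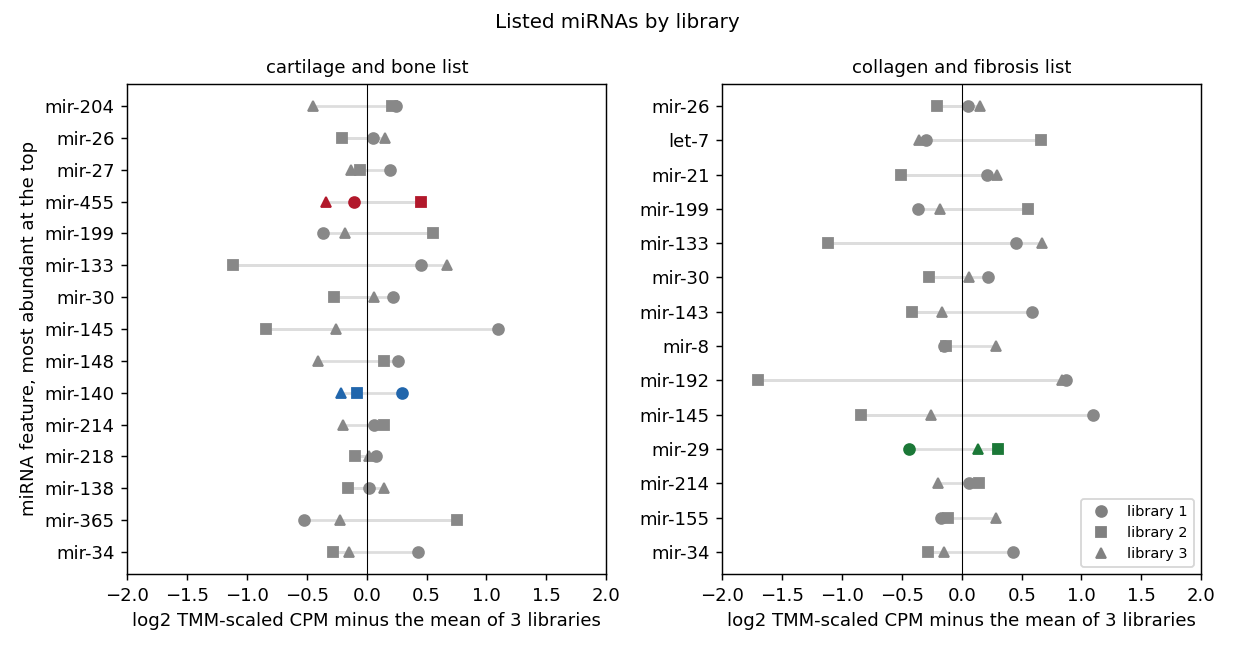
Log2 TMM-scaled CPM of each listed miRNA averaging 100 or more counts, minus its mean over the libraries, for the cartilage and bone list and the collagen and fibrosis list. Symbols mark libraries 1 (circle), 2 (square) and 3 (triangle), and colour marks the members. mir-455 and mir-29 are highest in library 2, mir-140 in library 1, and mir-145, mir-133 and mir-192 spread most.

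Marker miRNAs of other cell types also moved between the libraries. The epidermal list took 6.31%, 7.14% and 8.73% of counts in libraries 1, 2 and 3, with 3 of its 4 features detected and mir-200 at 0. mir-205 made up most of this sum (6.63% of a mean of 7.39%). After scaling, all 3 detected features were highest in library 3, but mir-205 and mir-203 were lowest in library 2 and mir-8 in library 1. The mesenchyme and smooth muscle list took 1.92%, 2.71% and 1.89%, with library 2 highest, as for mir-455. Within that list mir-199 and mir-214 were highest in library 2 but mir-143 and mir-145 in library 1. The striated muscle list took 1.64%, 0.667% and 2.23%, lowest in library 2, with 3 of 3 features detected and none listed for miR-206, and the erythroid list 0.113%, 0.226% and 0.0509%, highest in library 2, with 2 of 2 detected. The leukocyte list, with 4 of 4 detected, took 0.475%, 0.501% and 0.458%, an even sum of members that moved in opposite directions: mir-142 and mir-223 were highest in library 2, where mir-146 was lowest. mir-126, the endothelial marker, took 0.487%, 0.415% and 0.312%, falling in the same order of libraries as mir-140. The neural list, with 5 of 5 detected, took 0.140%, 0.243% and 0.272%, lowest in library 1, as for mir-29. Most of that sum was mir-128 (0.177% of a mean of 0.218%), and after scaling mir-138 was lowest in library 2 and mir-218 highest in library 1. The scarce mir-124 was lowest in library 3, with 4.25, 5.02 and 2.19 scaled CPM in libraries 1, 2 and 3. The part of any of these cell types in the levels of the members was not tested.

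Set against these lists within a library, mir-455 had 0.888, 1.12 and 0.901 times the counts of the mesenchyme and smooth muscle list in libraries 1, 2 and 3, a 1.26-fold range. That list rests mostly on mir-199 (1.49% of a mean of 2.17%), and its members also moved in opposite directions. Against striated muscle the ratio of mir-455 was 1.04, 4.54 and 0.762, a 5.96-fold range. mir-140 kept the steadiest ratio to the leukocyte list, at 0.131, 0.115 and 0.112 (1.17-fold), a list whose members moved in opposite directions, and its ratio to mir-126 ranged 1.29-fold. mir-29 had 0.482, 0.559 and 0.434 times the counts of the neural list, a 1.29-fold range that rests mostly on mir-128, against 1.78-fold for its ratio to the mesenchyme list and 1.79-fold to the epidermal list. Of the 7 cell-type lists, the steadiest partner thus was a different one for each of the members, in 3 libraries and without a test.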

How the data were processed

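The authors deposited raw read counts per miRNA name, not normalized or pooled. Libraries were made with a TruSeq small RNA kit from Illumina, per the labels' protocols. The submitters' processing notes list BWA 0.7.12-r1039, SAMtools 1.3.1-9, Trimmomatic 0.36 and bcl2fastq 1.8.4. Not given in the sources used here are their roles, the build, the miRNA annotation and the rule for reads with several matches. Reads that match several family members may therefore be lost or counted repeatedly. This may bear on mir-29, with its several genes in vertebrates, and was not checked for any of the members. No molecular identifiers are mentioned, so all intervals (95%) cover the counting error of reads only, not that of RNA molecules.

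From the counts, shares, CPM, ranks and ratios were computed with the sum over all 324 features as the library total. TMM factors (edgeR 4.0.16, features averaging 10 or more counts) were 0.890, 1.07 and 1.05 for libraries 1, 2 and 3. Spread was described over the 115 features averaging 100 or more, and coefficients of variation came from edgeR with an intercept-only design. Chi-square tests used an adjusted p threshold of 0.05. For single features the expectation came from library totals, and for pairs from the counts of the pair alone. The chi-square tests and the coefficients of variation were tested on simulated data. Python 3.11.15 (scipy 1.17.1, numpy 2.4.6, pandas 2.3.3, matplotlib 3.10.9), R 4.3.3 and DESeq2 1.42.0 were used. Named features were the members, the 3 nearest in course, the neighbours in rank and the listed miRNAs. Outside this rule, mir-181 and mir-103 were picked as examples of the coefficient of variation beside the range. The members and lists were chosen with earlier results of these data known. Alternatives were other scalings, filters, denominators and pseudocounts, and each library left out.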

Additional observations from a re-analysis of the deposited data

How the results depend on the processing

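No paired analysis was possible because the study has a single group. With each library left out, the mean log2 ratio was 4.91 to 5.38 for mir-455 over mir-140 and 4.16 to 4.57 for mir-455 over mir-29. For mir-29 over mir-140 it was 0.65 to 1.22. Each ratio was positive in 3 of 3 libraries, so leaving a library out could not reverse its direction. A pseudocount of 0.5 could not do so either at these counts. With mir-204, the most abundant feature, left out of the total, the share of mir-140 was 0.0680%, by construction of the smaller total. The range of mir-455 over the libraries was 1.82-fold with DESeq2 size factors, 1.78-fold with library totals and 1.93-fold with TMM over all features with counts, and 1.18 to 1.77-fold as libraries were left out in turn, lowest without library 2. That of mir-140 was 1.21-fold with library totals, and 1.12 to 1.42-fold with each library left out, and that of mir-29 was 2.02-fold with library totals and 1.92-fold with TMM over all features with counts, and 1.15 to 1.71-fold as libraries were left out in turn, lowest without library 1. Apart from refitted TMM factors, a range narrows by construction when its highest or lowest library is left out. The lowest of these values thus restate which library was extreme. The coefficient of variation was 0.326 to 0.444 for mir-455, 0.383 to 0.513 for mir-140 and 0.373 to 0.496 for mir-29 with each library left out. Among features averaging 1000 or more counts, 2764 of 2775 pairs (99.6%) had a ratio that differed between libraries. This is a larger share than the 97% among features averaging 100 or more, although fewer pairs enter. Summing features of the same number changed nothing for mir-455, mir-140 and mir-29, each of which has 1 feature. The number of libraries, not depth, limits these values.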
